A study of Sus scrofa with 2 samples.

Results

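ARF6, VCPKMT and SOS2 are 3 neighbouring protein-coding genes on pig chromosome 1, and 7 chromatin loops of pig spleen had an anchor at an end of at least 1 of them. The genes were chosen by their number of loops in the deposited loop list, so these numbers describe the choice and are not tested. The neighbourhood was set as every loop with an anchor no further than 500 kb from the stretch between ARF6 and SOS2. That gave 12 of the 3410 listed loops and 4 of the 1927 listed domains, and the 3 genes were among 19550 protein-coding genes on placed chromosomes. In situ Hi-C ligates DNA ends that lie close together in fixed nuclei and counts the joined pairs. It was done on spleen from 2 biological replicates, which formed a single group without a treatment or second tissue. Both deposited tables describe the series and not a replicate, so no spread between animals could be given. Age, sex and breed of the pigs were not given in the sources used here, contacts were summed over all cell types of the spleen, and the tissue label could not be checked against marker genes because no expression was measured.

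A chromatin loop is a pair of loci that meet more often than the loci around them. In mammals many loops are held by the cohesin ring where it halts at bound CTCF, and others bring promoters and enhancers together. A topologically associating domain, here called a domain, is a stretch that contacts itself more than its flanks. ARF6 is a small GTPase that controls endocytosis, membrane recycling and cortical actin. VCPKMT is a lysine methyltransferase whose known substrate is the chaperone ATPase VCP. SOS2 is a guanine nucleotide exchange factor that loads Ras with GTP after receptor activation, as its close relative SOS1 does.

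The genes lay in the order ARF6, VCPKMT, SOS2 within 317 kb of the assembly Sscrofa11.1, with gene positions from RefSeq. No file header names the build of the loops, and all positions are given as in the authors' files, with the first base as 1. ARF6 ran from 179697582 to 179717299, VCPKMT from 179899642 to 179907439 and SOS2 from 179907578 to 180014941. VCPKMT and SOS2 were separated by 138 bases, whereas 182 kb lay between ARF6 and VCPKMT. The gene table gives no strand, so an annotated end is called lower or upper by its coordinate, and either may be the start of transcription. Each loop was listed as a pixel, a pair of 25 kb bins.

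The ends of ARF6 and VCPKMT each fell in a pair of adjoining bins, and all 4 bins were loop anchors. The lower end of ARF6 lay in the bin from 179675001 to 179700000, which had 3 loops, and its upper end in the next bin, which had 2. The lower end of VCPKMT lay in the bin from 179875001 to 179900000 with 3 loops, and its upper end in the bin from 179900001 to 179925000 with 2. That last bin also held the lower end of SOS2, and its upper end lay in the bin from 180000001 to 180025000, which had 1 loop. ARF6 and VCPKMT thus had 5 loops each and SOS2 had 2. Over all protein-coding genes, 17.3% had at least 1 loop at their ends, 4.85% at least 2, 0.322% at least 4 and 0.0665%, 13 genes, at least 5. The loop count was the basis of the choice, so nothing is read from these shares. Ends in a pair of adjoining anchors were found for 198 protein-coding genes (1.01%), and 3 of these, ARF6, VCPKMT and ATP5S, lay in this neighbourhood.

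**Figure D1:**
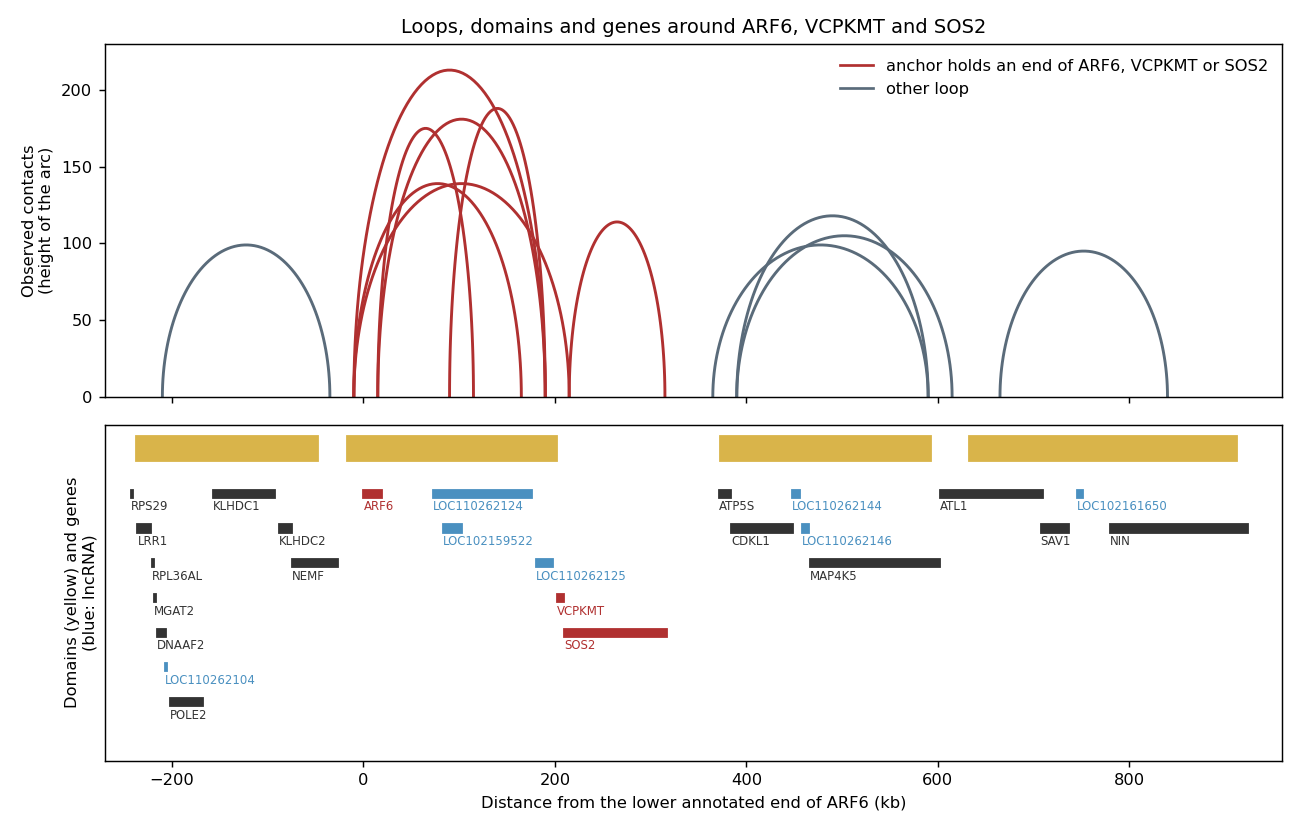
Loops, domains and genes by distance from the lower annotated end of ARF6 (kb). Each arc joins the centres of the 2 anchors of a loop and its height is the observed contact count; the 7 loops at the 3 genes (red) reach 114 to 213 contacts and the other 5 (grey) reach 95 to 118.

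ARF6 and VCPKMT were joined directly by 3 listed pixels. The pixel between both lower ends, with a span of 200 kb, had 213 contacts (95% Poisson interval 185 to 244) against 85.8 expected. The expected value is that of the donut, a ring of surrounding pixels, and the ratio was 2.48. The pixel between the upper end of ARF6 and the lower end of VCPKMT, 175 kb apart, had 181 contacts (156 to 209) against 76.6 expected, a ratio of 2.36. The third pixel, between the lower end of ARF6 and the bin with the upper end of VCPKMT and the lower end of SOS2, spanned 225 kb and had 139 contacts (117 to 164) against 68.7 expected, a ratio of 2.02. Of the 4 possible pixels between the bins of ARF6 and those of VCPKMT, the one between both upper ends was not listed. Poisson intervals cover counting error only, and the count of the first pixel lay above the interval of the third. Their ratios, with intervals of 2.16 to 2.84 and 1.7 to 2.39 when the expected value is taken as fixed, overlapped.

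These 3 pixels formed a single patch of touching pixels together with another. In this other pixel, the lower bin of ARF6 met the bin from 179850001 to 179875000, which held an end of the lncRNA gene LOC110262124 and no protein-coding gene end. It had 139 contacts (117 to 164) against 74.8 expected, a ratio of 1.86. The counts in the patch were therefore highest in the pixel between both lower ends and lower in the pixels on either side of it along the ARF6 bin. Touching pixels are not independent loops, and 52.4% of placed loops touched another pixel, against 7 of the 12 here.

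Inside the interval between ARF6 and VCPKMT, both genes looped to the same small stretch. ARF6, by its upper end, met the bin from 179800001 to 179825000 with 175 contacts (150 to 203) against 104 expected, a ratio of 1.68. VCPKMT, by its lower end, met the adjoining bin from 179775001 to 179800000 with 188 contacts (162 to 217) against 110 expected, a ratio of 1.71. Each of these loops spanned 100 kb, the shortest span listed. The lower and upper ends of the lncRNA gene LOC102159522, which runs from 179780666 to 179800299, lay in these 2 bins. Its upper end was just above the border between them. The lncRNA gene LOC110262124, from 179769986 to 179873463, spanned both bins with neither end in them. Another lncRNA gene, LOC110262125, had both ends in the bin of the lower end of VCPKMT. Of 7 lncRNA genes in the neighbourhood 4 had an end in an anchor, and of all lncRNA genes on placed chromosomes 13.6% did.

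The loops thus closed a triangle. A patch joined ARF6 to VCPKMT, and an inner loop from each gene met in adjoining bins between them. These bins held the ends of LOC102159522 and lay within the longer LOC110262124. The same arrangement, with the 2 inner loops meeting in the same or adjoining bins, was counted for 53 of 2252 patches or single pixels on autosomes (2.35%). It was counted after the triangle had been seen here.

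SOS2 was looped end to end. The loop from the bin of its lower end to the bin of its upper end had a span of 100 kb and 114 contacts (94 to 137), against 67 expected, a ratio of 1.7. The upper end of VCPKMT shared the first of these bins. At this bin width the loop cannot be assigned to 1 of the genes. Of 3900 protein-coding genes longer than 75 kb, the lengths at which a loop could join both ends, 59 (1.51%) had such a loop. The other loop of SOS2 was the pixel with 139 contacts to ARF6 described above. No listed loop enclosed all 3 genes.

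**Figure D2:**
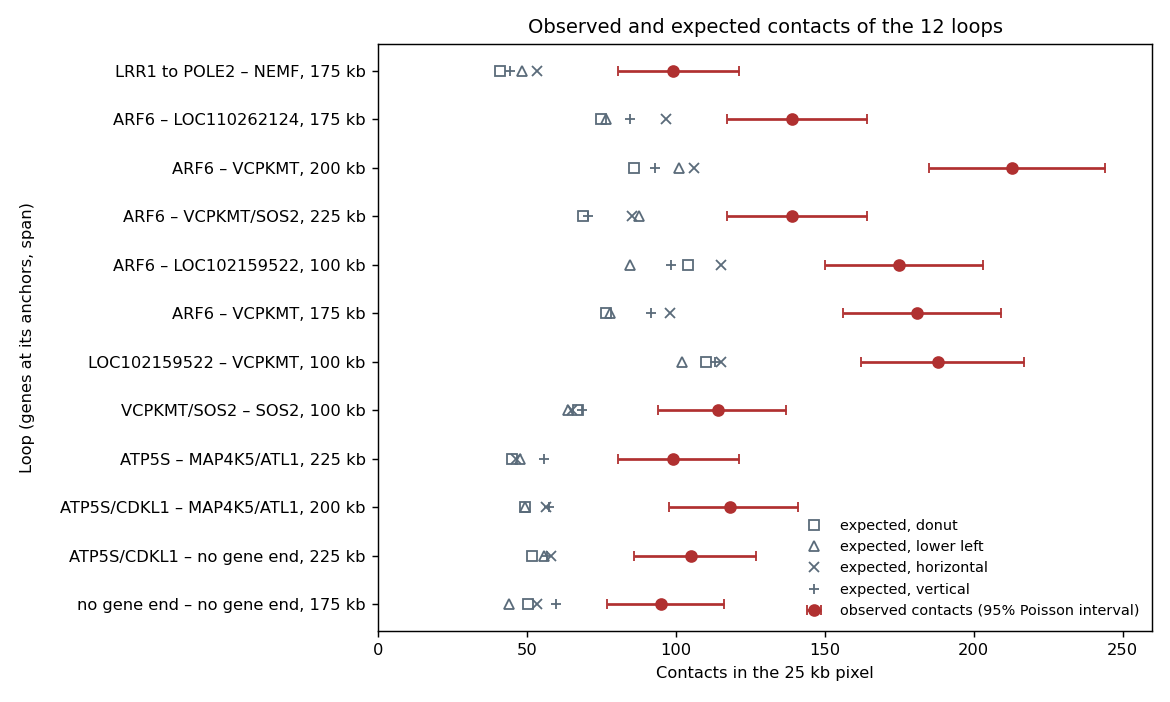
Observed contacts (points, with 95% Poisson intervals) and the 4 expected values of each of the 12 loops, in contacts per 25 kb pixel, ordered along the chromosome. The pixel between the lower ends of ARF6 and VCPKMT is highest at 213, and the observed count of each loop lies above all 4 of its expected values. All listed loops have an FDR of at most 0.0999, so this follows from how loops were listed.

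The authors' table gives 4 expected values per loop, from the donut and from the lower-left, horizontal and vertical neighbourhoods, and an FDR against each. The ratio for the pixel between the lower ends of ARF6 and VCPKMT was between 2 and 2.48 over the 4, and its largest FDR was 7.3e-10, rank 153 of 3402 placed loops. For the pixel of the upper end of ARF6 the ratios were 1.84 to 2.36 and the largest FDR was 0.00021. The pixel of the patch at LOC110262124 was nearer to its horizontal neighbourhood, with a ratio of 1.44 and an FDR of 0.0086. The end-to-end loop of SOS2 had ratios of 1.67 to 1.79 and the largest FDR of the 7 loops, 0.015. Among the 1701 of 3402 placed loops that had the lowest FDR, 10 of the 12 loops were found, and the SOS2 loop and the loop with 95 contacts described below were not.

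Contacts at ARF6 and VCPKMT were high for the distance they spanned, and so were the contacts expected there. The 213 contacts of the pixel between the lower ends were the most of the 345 loops on chromosome 1 and ranked 40 of 3261 autosomal loops. Compared with the other autosomal loops of the same span, 99.6% of 254 had fewer contacts, 98.4% had a lower expected value and 89% had a lower ratio. The median loop of this span had 108 contacts and a ratio of 2.07. For the pixel with 181 contacts, 98.8% of 338 loops of its span had fewer contacts, 95% a lower expected value and 84.6% a lower ratio. The loops from ARF6 and VCPKMT to the bins with the ends of LOC102159522 had more contacts than 86.3% and 91.1% of 716 loops of 100 kb. Their ratios of 1.68 and 1.71 were close to the median of 1.73 at that span, and 40.8% and 46.8% of loops had lower ratios.

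The end-to-end loop of SOS2, which shares a bin with VCPKMT, had fewer contacts than most loops of 100 kb, with 21.9% of 716 below it and a median of 136. The expected value was also low, with 24% of loops below it, and the ratio was again near the median, with 45% below. Among the 7 loops at the 3 genes, 6 were above the median of their span in contacts, 6 in expected contacts and 2 in ratio. These 7 loops formed 4 patches or single pixels, so they are not 7 independent cases. Contacts are not normalized in the table, and coverage per bin was not analysed here, so its part in these levels was not tested.

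**Figure D3:**
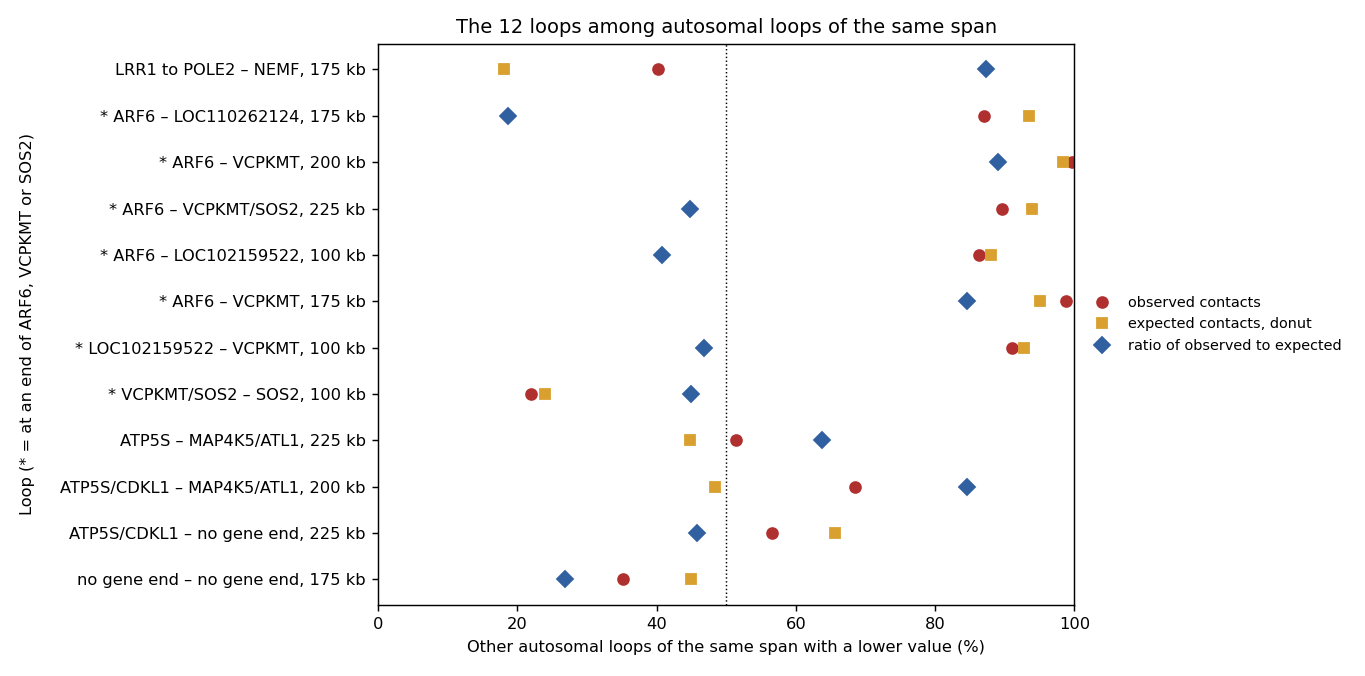
For each of the 12 loops, the percentage of other autosomal loops of the same span with a lower observed count, a lower expected count (donut) and a lower ratio; the dotted line is the median. The 6 loops of ARF6 or VCPKMT other than the SOS2 end-to-end loop lie at 86.3% or above in contacts, while their ratios range from 18.6% to 89%.

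The interval between ARF6 and VCPKMT was also listed as a domain. It had a length of 220 kb and ran from 179680001 to 179900000, its lower edge 17.6 kb below ARF6 and its upper edge 0.358 kb above the lower end of VCPKMT. ARF6 was the only protein-coding gene wholly inside it. The 200 kb and 225 kb pixels between ARF6 and VCPKMT joined both edges of this domain, with each anchor less than 20 kb from an edge. VCPKMT straddled the upper edge, and SOS2 lay in a gap of 170 kb between domains, with its lower end 7.58 kb from that edge. All 3 genes thus had an end within 20 kb of a domain edge, as had 18.7% of protein-coding genes. The end-to-end loop of SOS2 lay in the gap, with both anchors outside all listed domains. Both lists derive from the same Hi-C series, so the match of loops and domains is not independent.

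The neighbouring domains had loops of their own, with no listed loop to an end of ARF6, VCPKMT or SOS2. Below ARF6, a domain of 190 kb from 179460001 to 179650000 was closed by a loop of 175 kb with 99 contacts (80.5 to 121) against 40.9 expected, a ratio of 2.42. Its lower anchor held ends of LRR1, RPL36AL, MGAT2, DNAAF2 and POLE2, among them a ribosomal protein, an enzyme of N-glycan synthesis and a subunit of DNA polymerase epsilon. The upper anchor held an end of NEMF, a factor of ribosome-associated quality control. This loop had fewer contacts than the median of 108 for its span, but 87.3% of those loops had a lower ratio. A gap of 30 kb, which contained the upper end of NEMF, separated this domain from that of ARF6.

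Above SOS2, a domain of 220 kb from 180070001 to 180290000 was closed by 3 touching pixels. They joined bins with ends of ATP5S and the kinase gene CDKL1 to a bin with ends of MAP4K5, a kinase upstream of JNK, and ATL1, a GTPase that shapes the endoplasmic reticulum, or to the bin above that. Their spans were 225, 200 and 225 kb. Their counts were 99 (80.5 to 121), 118 (97.7 to 141) and 105 (85.9 to 127), with ratios of 2.19, 2.39 and 2.03. These intervals overlapped each other. All 3 counts were below the lower bound for the pixel between the lower ends of ARF6 and VCPKMT, which spanned 200 kb and had the most contacts on chromosome 1. Expected values were lower too, at 45.1, 49.3 and 51.7 against 85.8. The intervals of the 3 ratios, 1.78 to 2.67, 1.98 to 2.87 and 1.66 to 2.46, overlapped the 2.16 to 2.84 of that pixel. The last domain, of 280 kb from 180330001, held a loop of 175 kb with 95 contacts (76.9 to 116) against 50.2 expected. Its anchors held no gene end, but the lower lay within ATL1 and the upper within NIN. The gap between this domain and the one before was 40 kb. Of the 12 loops, 6 joined both edges of a domain, against 24% of placed loops. Touching pixels were among these 6, and the window was set around genes chosen for their loops, so nothing is read from the difference.

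Of the 19 protein-coding genes within 500 kb, 14 had an end in an anchor and 14 had an end within 20 kb of a domain edge. Over all protein-coding genes the shares were 17.3% and 18.7%. The window was set around genes chosen for their loops, so nothing is read from the difference. The 5 without an end in an anchor were RPS29, KLHDC1, KLHDC2, SAV1 and NIN, although an anchor of the loop with 95 contacts lay within NIN. Both ends of KLHDC1, KLHDC2 and SAV1 lay inside domains, and NIN, a centrosomal protein, crossed the upper edge of the last one. ATP5S, with 3 loops, came next after ARF6 and VCPKMT, and its median was 105 contacts against 175 for ARF6 and 181 for VCPKMT. CDKL1, MAP4K5 and ATL1 had 2 loops each at their ends, and their median counts were 111.5, 108.5 and 108.5, while that of SOS2 was 126.5. These medians are not at equal distance. The ATP5S loops spanned 200 to 225 kb, and those of ARF6 and VCPKMT 100 to 225 kb. Other autosomal loops had a median of 136 contacts at 100 kb and 98 at 225 kb. LRR1, RPL36AL, MGAT2, DNAAF2, POLE2 and NEMF had the single loop with 99 contacts.

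Gene ends near a bin border limit these assignments. The lower end of VCPKMT lay 358 bases from the border between its bin and the next, and the lower end of ARF6 lay 2.42 kb from one. Nearer still to a border was the upper end of LOC102159522, at 179800299 in a bin that began at 179800001. The lower end of SOS2 lay 7.58 kb above the same border as VCPKMT, and with anchors widened by 10 kb SOS2 had 5 loops. With 1 pixel kept per patch, the one with the most contacts, ARF6 had 2 loops, VCPKMT 3 and SOS2 1.

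The genes whose loops were most like those of ARF6 were found by number of loops, number of patches and number of partner anchors. The search covered 3368 other genes with loops in this 1 tissue, all more than 500 kb away, so VCPKMT was not among them. ARF6 had 5 loops in 2 patches or single pixels and 4 partner anchors. PRELP on chromosome 9, LPCAT4 and NUTM1 on chromosome 7 had the same 3 numbers, and the last 2 share their loops. A further 15 genes differed by 1 in 1 of the numbers. The 2 of them taken, with 1 loop fewer, had the median span closest to the 175 kb of ARF6, at 187.5 kb each. They were LOC102160416 on chromosome 10 and MED21, a subunit of the Mediator complex, on chromosome 5. The median count was 112 for PRELP, 95 for LPCAT4 and NUTM1, 208 for LOC102160416 and 114.5 for MED21, against 175 for ARF6. Median spans were 150 kb for PRELP and 250 kb for LPCAT4 and NUTM1, so these counts are not at equal distance. Ratios ranged from 1.56 to 2.57 for PRELP, 1.94 to 2.32 for LPCAT4 and NUTM1 and 1.66 to 2.51 for MED21, which all overlapped the 1.68 to 2.48 of ARF6. Those of LOC102160416, from 2.64 to 48.1, did not, and 1 of its loops spanned 3975 kb.

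Genes that act with ARF6, or belong to its family, were counted at anchors for comparison. Of 49 matched genes 10 (20.4%) had an end in an anchor, beside 17.3% of all protein-coding genes, and the median number of loops per gene was 0. By role, 6 of 15 GTPase-activating proteins, 1 of 11 exchange factors, 2 of 13 effectors and 1 of 10 relatives of ARF6 were at anchors. ACAP2 on chromosome 13 and ARAP3 on chromosome 2, both GTPase-activating proteins, had 3 loops each. The ACAP2 loops spanned 200 to 625 kb, with 108 to 113 contacts and ratios of 2.02 to 3.06. The ARAP3 loops spanned 175 to 225 kb with 77 to 103 contacts, and led to ends of PCDH1, PCDH12 and RNF14. RAB11FIP4, which binds Rab11 and ARF proteins, had 1 loop of 250 kb with 125 contacts.

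Of 41 other genes of Ras activation, SOS2 not counted, 10 (24.4%) were at anchors, beside 17.3% of all protein-coding genes. GAB2, a docking protein of receptor signalling, had 2 loops with 58 and 117 contacts. SPRED1, an inhibitor of the pathway, had a loop of 350 kb with 102 contacts. SOS1, the paralog of SOS2, had 1 loop, of 175 kb, with 94 contacts and a ratio of 2.04. It started in the bin from 101200001 to 101225000 on chromosome 3 with the lower end of SOS1, and its other anchor held no protein-coding gene end. The upper end of SOS1 lay 8.94 kb from that anchor, so with anchors extended by 10 kb this loop too would join both ends of its gene.

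Of 32 matched genes of the VCPKMT family and of VCP and its cofactors, 9 (28.1%) were at anchors. The share of all protein-coding genes was 17.3%. UBXN1, a VCP cofactor, had 2 loops with 90 and 148 contacts. METTL22, a related methyltransferase, had a loop of 475 kb with 70 contacts and a ratio of 2.22. EEF1AKMT2 and METTL21A, also methyltransferases, had 1 loop each, with 110 and 107 contacts. VCP, the substrate of VCPKMT, had none. The order of the lists changed with the loops used. When counted with the 1701 loops of lowest FDR, 4 genes of the ARF6 list (8.16%), 6 of the Ras list (14.6%) and 2 of the VCPKMT list (6.25%) were at anchors, beside 9.37% of all protein-coding genes.

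**Figure D4:**
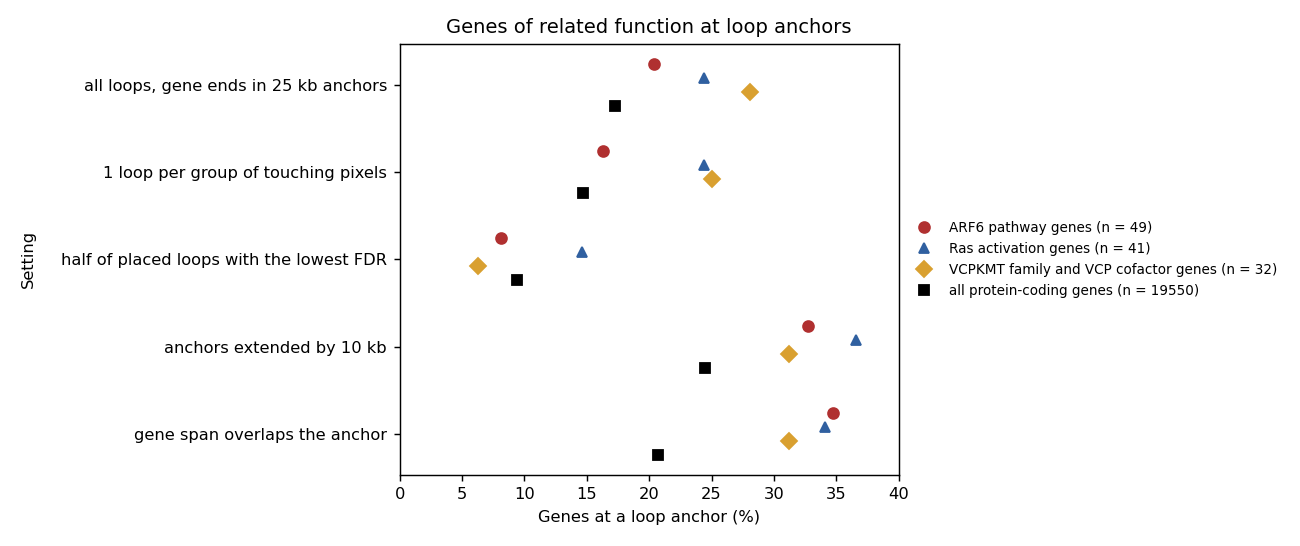
Percentage of genes at a loop anchor in each of the 3 lists and over all 19550 protein-coding genes, under the setting of the text (top) and 4 alternatives. The lists lie at 20.4%, 24.4% and 28.1% against 17.3% in the top row, and at 8.16%, 14.6% and 6.25% against 9.37% with the 1701 loops of lowest FDR.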

How the data were processed

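The loop and domain tables of the series were analysed as deposited. The submitters' processing notes list HiC-Pro 3.1.0, and per the file headers juicer_tools 1.9.9 produced the loops. The observed contact count of each loop is not normalized in the deposited table. The expected signal from 4 neighbourhoods is in the same unit, per the file headers. The FDR values are q-values of the authors' caller. The sources used here do not name the domain caller or the build, or say whether replicates were pooled, and the depth per replicate is unknown.

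Gene ends were assigned to 25 kb anchors with Python 3.11.15 and pandas 2.3.3, using RefSeq genes of Sscrofa11.1. The ratio is the observed count over the donut expectation. Pixels that touched by a side or corner formed a patch. Poisson intervals (95%, exact) were computed with scipy 1.17.1. No test was run, since the members were selected on their loops. The members, the lists and the rule for named genes were chosen with earlier results of these data known. Named genes were the 3 members, genes at anchors of loops within 500 kb, and up to 4 per list with the most loops, ties by longer summed span. Also named were the 5 most like ARF6 among genes more than 500 kb away, ties by closest median span. Some genes that this rule named are not reported here. Other genes named were chosen after their values were seen. The assignment of genes to anchors was tested on simulated data. Alternatives were patches counted once, the 1701 loops of lowest FDR (largest of 4 values), anchors extended by 10 kb, gene spans, and other distances. Sequences of the genes and anchors were not used here.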

Additional observations from a re-analysis of the deposited data

How the results depend on the processing

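Counts of loops depended on how pixels were counted. With 1 pixel per patch, the loops fell from 12 to 7 within 500 kb, from 5 to 2 at ARF6, from 5 to 3 at VCPKMT and from 2 to 1 at SOS2. The 3 gene lists then had 8, 10 and 8 genes at anchors, within 1.5 times of the 10, 10 and 9 given. In the 1701 loops of lowest FDR, SOS2 had 1 loop, and the ARF6, Ras and VCPKMT lists had 4, 6 and 2 genes at anchors. With anchors extended by 10 kb, SOS2 had 5 loops and the ARF6 list 16 genes, and by gene span that list had 17. The construction of these settings, with fewer loops or wider anchors, moves the counts for all genes too, from 17.3% to 14.7, 9.37, 24.5 and 20.7%. At 0 kb no end of the 3 genes lay on a domain edge, against 3 genes at 20 and 40 kb. Domain edges were listed in steps of 10 kb, so an end would rarely lie on one exactly, and nothing is read from the 0 kb setting. Counting anchors at exactly 20 kb, a choice made after the data were seen, 7 loops in place of 6 joined both edges of a domain. Over all 3402 placed loops, the count rose from 815 to 974 in the same way. Windows of 250 kb and 1 Mb gave 11 and 13 loops. No paired analysis was possible because the tables hold no value per replicate, and for the same reason no replicate was left out. Depth per replicate is unknown, so the counts per pixel are the only measure of precision.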

Other observations

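The loops around ARF6 began at the border of a long stretch with few genes. Before the first anchor at 179475001, no listed loop had an anchor for 4000 kb, and 101 of 3767 such stretches on autosomes were at least as long (median 150 kb). Wholly inside the stretch were 3 protein-coding genes, RPL10L, MDGA2 and RPS29, and 6 lncRNA genes. LRR1, from 179461399 to 179475337, began in it and ended in the first anchor. MDGA2, a neuronal adhesion protein, ran from 176770045 to 177595012. No domain was listed for 9530 kb before the domain that starts at 179460001, a gap with 13 protein-coding genes, and 8 of 1774 autosomal gaps were at least as long (median 360 kb). On the other side, the next anchor began at 180725001, 710 kb above the end of SOS2, with 75 contacts and a ratio of 1.91, and was the nearest loop outside the window on that side. The furthest loop inside it began 335 kb above SOS2 and had 95 contacts and a ratio of 1.89. These genes and stretches were described after their values were seen.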
